A study of Mus musculus with 26 samples.

Results

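Pecam1, Ptprb, Sox17, Cd34, Icam2, F11r, Gja1, Hey2 and Jag2 are 9 genes of endothelial identity, cell junctions and Notch signalling, and their RNA was followed in endothelial cells sorted from mouse tumours and kidneys. A gene's members on the array were the probe sets (groups of probes read as one value) whose only gene symbol in the array annotation was that gene. They came to 117 probe sets of 53857 with a single symbol, for 9 of the 5109 genes that had a probe set of their own. Ptprb had 30 probe sets, Pecam1 had 21, Jag2 had 19, F11r and Cd34 had 11 each, Icam2 had 9, Sox17 had 7, Hey2 had 6 and Gja1 had 3.

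Endothelial cells line blood and lymph vessels, and they hold together through adherens, tight and gap junctions while surface glycoproteins meet passing leukocytes. Notch signalling between neighbouring endothelial cells, with ligands of the Jagged and Delta families and target genes of the Hey family, takes part in arterial fate. Interferon gamma (IFNγ) acts through its receptor on endothelial cells and is known to raise antigen presentation and adhesion genes there.

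The study asked what IFNγ does to the endothelium in living animals, with 26 arrays in 9 groups of 2 to 5, all from female mice. In the first design MCA313 tumours carried an inducible IFNγ gene, and the hosts, aged 4-6 months, were the transgenic line PIG-Pdgfb-Cre-IFNγ-del, in which only endothelial cells carried the IFNγ receptor and Pdgfb drove the Cre. Tumour endothelium was taken without induction (0 h, 3 arrays) and after 24 h (2 arrays) and 48 h (2 arrays) of induction. In the second design tumours of J558L, a mouse plasmacytoma line, carried inducible IFNγ-GFP and grew in Rag-/- mice aged 4-6 months, which had the receptor on all cells and lacked mature T and B cells. Tumour endothelium came from 3 arrays at 24 h and 2 at 0 h, and kidney endothelium of J558L-bearing mice from 3 arrays at 24 h and 3 at 0 h. In the third design 16.113 tumours in Rag-/- mice aged 3-4 months were taken 120 h after transfer of tumour-specific T cells, which could make IFNγ in 3 arrays (competent) and could not in 5 (deficient). The labels do not say that replicates came from separate animals, so p-values measure the spread between arrays only, which may be technical.

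Levels are the deposited log2 values. Arrays of the same tissue and tumour shared 5.40 to 37.4% of their exact values pairwise and arrays of different ones at most 0.0031%, so MCA313 tumour, J558L tumour, J558L kidney and 16.113 tumour were read as 4 separately normalized sets, and levels were compared only within a set. Array medians were 5.78 to 5.88 in MCA313 tumours, 6.42 to 6.46 in J558L tumours, 6.33 to 6.40 in kidneys and 5.62 to 5.79 in 16.113 tumours. In the 16.113 set, competent replicates 3 and 2 stood apart, with mean correlations to the other arrays of the set of 0.891 and 0.907, against 0.935 to 0.941 for the rest. The 7 measured genes of a list of 20 endothelial markers, 5 of them among the 9 genes, were above the array median in every array of every group. Cells had been sorted for CD31, the protein of Pecam1, and CD146, so the high level of Pecam1 is what the gate selected and no finding. In bulk RNA from sorted cells, fewer cells of a type and less RNA per cell cannot be told apart.

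Each gene was read through the probe set with the highest mean over all arrays, and 4386 genes were tested together with limma and the Benjamini-Hochberg adjustment, at an adjusted p under 0.05. The number of arrays limited the precision. All 9 genes were tested, with 116 of the 117 probe sets, and the average of each gene's probe sets was a further reading of the same arrays.

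Of the 9 genes, 1 differed between endothelium exposed to IFNγ and its control by this test. Gja1, which encodes a connexin of gap junctions, was lower after competent than after deficient T cells in 16.113 tumours. In that comparison 7.36% of all tested genes were called. The call of Gja1 was lost with averaged probe sets, with array weights and with the 16.113 arrays fitted alone. Read over all probe sets, Ptprb, the phosphatase VE-PTP that acts on VE-cadherin and Tie2, fell in kidney endothelium at 24 h, and Jag2, a Notch ligand, fell in MCA313 tumour endothelium at 48 h. Neither passed with its brightest probe set alone. Averaged probe sets called 5.28% of all genes in that kidney comparison and 2.61% in that MCA313 comparison.

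By gene, 0 of the 9 were called by limma in MCA313 tumours at 24 h, where 0.684% of all tested genes were called, and 0 at 48 h, where 1.37% were. Between 48 h and 24 h 0 were called, with 0.0684% of all genes, and in J558L tumours 0, with 0.547%. In kidney 0 were called, with 3.17% of all genes. In 16.113 tumours 1 of 9 was called, with 7.36% of all genes. At an unadjusted p under 0.05 the counts were 1, 3, 0, 0, 1 and 1 of 9 in the same order, against 10.9, 12.8, 3.78, 8.14, 13.7 and 21.5% of all genes. The test of the difference between responses called 0 of 9 for J558L tumour minus kidney, with 0.0228% of all genes, 0 for MCA313 at 24 h minus J558L tumour and 0 for 16.113 minus J558L tumour, with 0% of all genes in both. At an unadjusted p under 0.05 those last counts were 0, 0 and 2, the 2 being Sox17 and Gja1, against 4.79, 2.99 and 6.27% of all genes. These tests share the J558L tumour arrays. By probe set 0 of 116 were called in MCA313 tumours at 24 h, with 0.16% of all probe sets, 0 at 48 h with 0.322%, 0 between those times with 0.0254% and 0 in J558L tumours with 0.142%. At an unadjusted p under 0.05 there were 14, 27, 4 and 3 of 116 in the same order, against 9.25, 10.4, 5.11 and 5.94% of all probe sets, and in kidney and 16.113 tumours 32 and 21, against 11.4 and 18.5%. Of the 32 in kidney, 22 were probe sets of Ptprb. Probe sets of 1 gene share their arrays, so these are no counts of separate genes. By averaged probe sets 0 of 9 were called in MCA313 tumours at 24 h, with 2.7% of all genes, 0 in J558L tumours with 1.72% and 0 in 16.113 tumours with 9.77%.

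**Figure D1:**
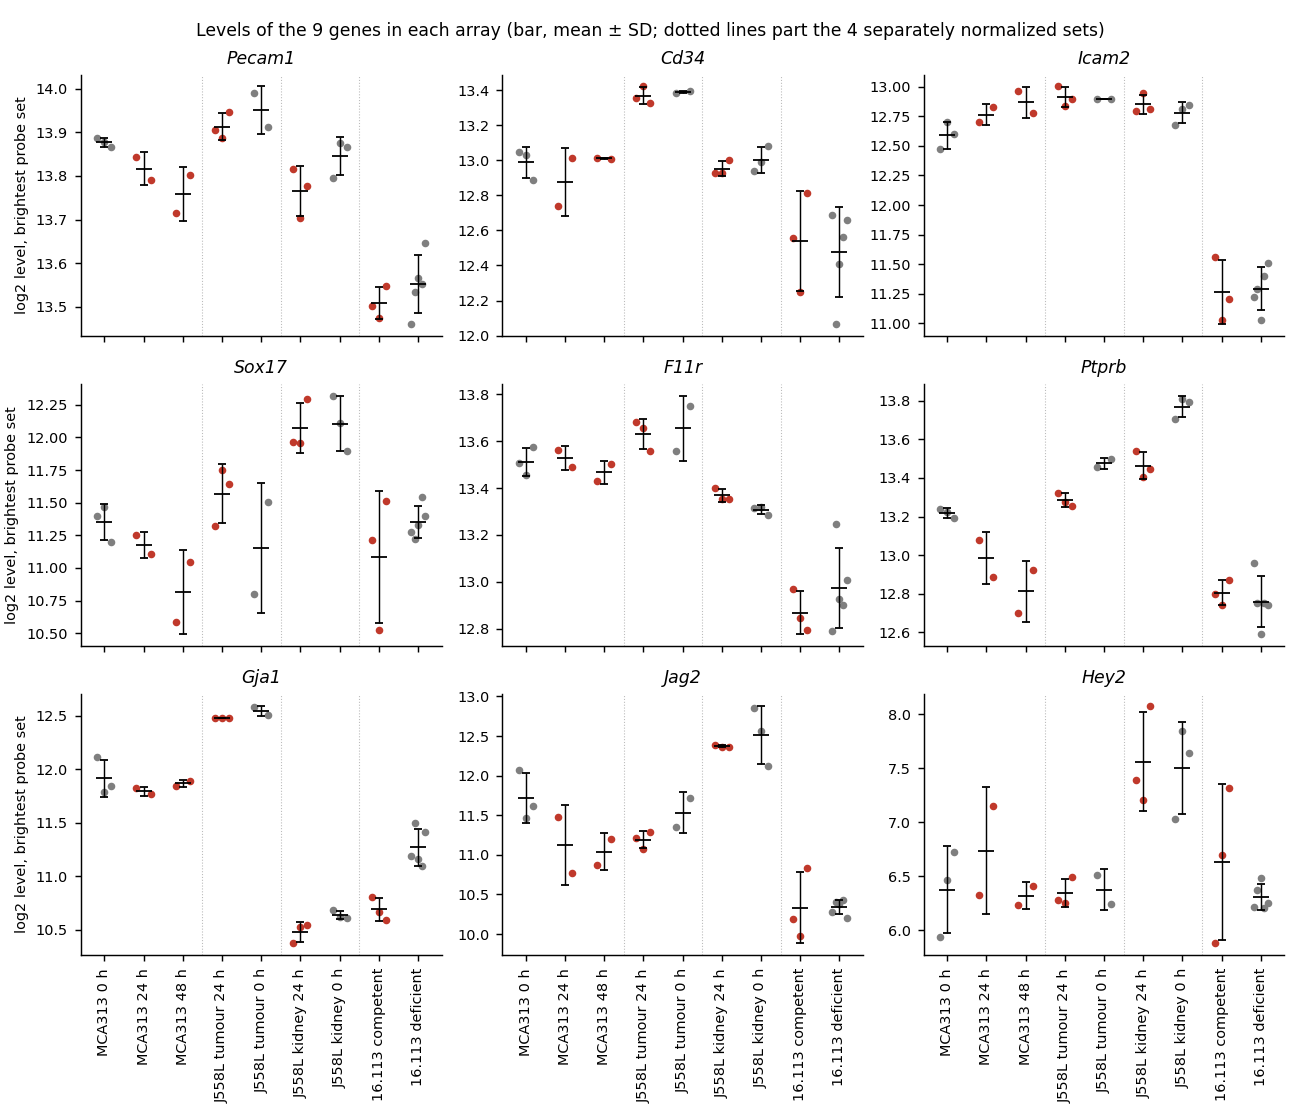
Deposited log2 level of the brightest probe set of each gene, one point per array, with the group mean and SD as bars. Red marks arrays with IFNγ or IFNγ-competent T cells and grey their controls. Dotted lines part the 4 separately normalized sets, between which levels cannot be compared. The Gja1 points of competent 16.113 arrays, 10.59 to 10.81, lie below all deficient ones.

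Pecam1, a homophilic adhesion molecule of endothelial junctions, did not pass the test in any comparison. Its brightest probe set read 13.89, 13.88 and 13.87 in MCA313 tumours at 0 h, 13.84 and 13.79 at 24 h, and 13.71 and 13.80 at 48 h. The induced arrays lay below the 0 h arrays without overlap, yet by 0.06 ± 0.12 and 0.12 ± 0.12 on the log2 scale (SE), which did not pass (adjusted p = 0.923 and 0.767). J558L tumours read 13.90, 13.89 and 13.95 at 24 h and 13.99 and 13.91 at 0 h, and kidneys 13.82, 13.70 and 13.78 at 24 h and 13.80, 13.88 and 13.87 at 0 h. 16.113 tumours read 13.50, 13.47 and 13.55 after competent T cells and 13.46, 13.53, 13.57, 13.55 and 13.65 after deficient T cells. Over the 5 comparisons with a control the change ran from -0.12 to -0.04, and the widest 95% bounds were -0.37 and 0.21.

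Most probe sets of Pecam1 lay slightly lower in each comparison. Of 21, 20 were lower at 24 h and 19 at 48 h in MCA313 tumours, 19 in J558L tumours, 18 in kidneys and 17 after competent T cells, with medians of -0.24, -0.23, -0.15, -0.32 and -0.25. In kidney the 9 probe sets above a log2 level of 13 had a median change of -0.25, the 6 between 10 and 13 had -0.44 and the 6 below 10 had -0.33. None was called, and probe sets of 1 gene share their arrays and are no replicates.

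Cd34, a sialomucin of the endothelial surface that also marks blood progenitors, did not pass in any comparison by its brightest probe set, with changes of -0.11 to 0.06 and adjusted p from 0.852 to 0.999. That probe set read 12.88 to 13.05 in MCA313 tumours at 0 h, 12.74 to 13.01 at 24 h and 13.01 in both arrays at 48 h. It read 13.33 to 13.42 in J558L tumours at 24 h and 13.38 to 13.4 at 0 h, and 12.92 to 13 in kidneys at 24 h and 12.94 to 13.08 at 0 h. In 16.113 tumours it read 12.25 to 12.81 after competent T cells and 12.07 to 12.69 after deficient T cells, so that the ranges overlapped in every set. Its probe sets leaned lower in MCA313 tumours, 10 of 11 at both times with medians of -0.22 and -0.33, and higher in kidney, 10 of 11 with a median of 0.13. Probe set 17221022 of Cd34 was called in 16.113 tumours. It read 11.19, 10.42 and 10.44 after competent T cells and 11.31, 11.64, 11.20, 11.13 and 11.51 after deficient T cells. Competent replicate 1 lay within the deficient range, and the arrays that stood apart were the 2 low ones. The change was -0.68 ± 0.19 (adjusted p = 0.0487), whereas the brightest probe set of Cd34 had a change of 0.06 ± 0.15.

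Icam2, an adhesion molecule of resting endothelium that binds leukocyte integrins, leaned upward without passing the test. In MCA313 tumours its brightest probe set read 12.47, 12.70 and 12.60 at 0 h, 12.70 and 12.83 at 24 h, and 12.96 and 12.78 at 48 h, with changes of 0.17 ± 0.17 and 0.28 ± 0.17 (adjusted p = 0.816 and 0.533). All 8 tested probe sets of Icam2 were higher at 48 h, at medians of 0.29 there, 0.20 in J558L tumours and 0.20 in kidney, where again 8 of 8 were higher. After competent T cells 5 of 8 were higher. The average of the probe sets had a change of 0.38 ± 0.18 at 48 h (adjusted p = 0.292) and by 0.31 ± 0.14 in 16.113 tumours (adjusted p = 0.201). In J558L tumours the brightest read 12.84 to 13 at 24 h and 12.90 in both arrays at 0 h, an identical value of the kind that arrays of a set share. Kidneys read 12.80 to 12.95 at 24 h and 12.68 to 12.85 at 0 h, and 16.113 tumours 11.03 to 11.56 after competent T cells and 11.03 to 11.51 after deficient T cells.

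Sox17, a transcription factor of arterial endothelium, had a direction that differed from set to set and no call. In MCA313 tumours it read 11.40, 11.47 and 11.20 at 0 h, 11.25 and 11.11 at 24 h, and 10.59 and 11.05 at 48 h. The 48 h arrays lay below all others, by 0.54 ± 0.25 against 0 h (adjusted p = 0.377), and the step between 24 and 48 h did not pass (-0.36 ± 0.28, adjusted p = 1). All 7 probe sets of Sox17 were lower at both times, with medians of -0.42 and -0.49. In J558L tumours it read 11.32, 11.75 and 11.64 at 24 h and 10.80 and 11.5 at 0 h, and 6 of 7 probe sets were higher. In kidney 6 of 7 were lower, although the brightest, at 11.96, 11.96 and 12.29 at 24 h and 12.32, 12.11 and 11.89 at 0 h, differed by less than its error (adjusted p = 0.974). In 16.113 tumours Sox17 read 11.21, 10.53 and 11.51 after competent T cells and 11.28, 11.22, 11.33, 11.54 and 11.40 after deficient T cells (-0.27 ± 0.20, adjusted p = 0.47). For the average of the probe sets, the J558L tumour response minus the kidney response was 0.53 ± 0.24 (adjusted p = 0.614).

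F11r, the tight junction protein JAM-A, showed small changes in every comparison. Its brightest probe set had a change of -0.11 to 0.06 over the 5 comparisons with a control, with adjusted p from 0.631 to 0.999 and widest 95% bounds of -0.34 and 0.32. It read 13.40, 13.35 and 13.35 in kidney at 24 h and 13.32, 13.32 and 13.29 at 0 h, with 10 of 11 probe sets higher at a median of 0.14. MCA313 tumours read 13.46 to 13.57 at 0 h, 13.49 to 13.56 at 24 h and 13.43 to 13.50 at 48 h, and J558L tumours 13.56 to 13.68 at 24 h and 13.56 to 13.75 at 0 h. 16.113 tumours read 12.79 to 12.97 after competent T cells and 12.79 to 13.25 after deficient T cells. Except in kidney, the ranges overlapped. All 11 probe sets of F11r were above the array median in every array of every group.

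Promoter sequence was at hand for F11r, Cd34, Hey2, Gja1 and Jag2, as the 250 bases before the start of each gene in RefSeq (GRCm38.p6). Gja1 is shown because it passed the test, and Jag2 and Hey2 because they are the Notch ligand and the Notch target among the 9 genes. Capitals mark AP-1 (TGANTCA) in Gja1 at chr10:56377050-56377299 on the plus strand, the RBPJ core (TGGGAA, here on the opposite strand) in Hey2 at chr10:30842784-30843033 on the minus strand, and GC boxes (GGGCGG, both strands, some of them overlapping) in Jag2 at chr12:112929496-112929745 on the minus strand.
Gja1: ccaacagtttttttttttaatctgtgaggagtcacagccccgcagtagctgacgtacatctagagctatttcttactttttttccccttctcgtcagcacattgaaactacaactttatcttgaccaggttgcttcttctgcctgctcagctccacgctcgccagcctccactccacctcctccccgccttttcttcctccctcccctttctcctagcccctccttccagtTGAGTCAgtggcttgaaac
Hey2: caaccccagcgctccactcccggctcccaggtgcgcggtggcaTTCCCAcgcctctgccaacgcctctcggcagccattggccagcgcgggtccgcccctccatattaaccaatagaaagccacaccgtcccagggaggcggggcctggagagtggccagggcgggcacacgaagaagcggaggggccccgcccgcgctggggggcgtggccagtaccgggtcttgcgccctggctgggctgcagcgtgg
Jag2: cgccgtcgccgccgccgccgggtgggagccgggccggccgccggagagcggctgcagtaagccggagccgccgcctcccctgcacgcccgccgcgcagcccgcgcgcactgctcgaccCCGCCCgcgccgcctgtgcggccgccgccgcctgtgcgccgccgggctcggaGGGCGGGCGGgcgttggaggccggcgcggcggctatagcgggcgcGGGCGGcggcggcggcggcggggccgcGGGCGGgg
Both strands were searched in these 5 promoters and in 32851 promoters of the same length. The IFNγ-activated site TTCNNNGAA was in 0 of 5, with 7.02% of all promoters, and the interferon-stimulated element core in 0 of 5, with 2.98%. The RBPJ core was in Hey2 alone, with 21.6% of all promoters. AP-1 was in F11r and Gja1, with 6.75%, and the GC box in F11r, Hey2 and Jag2, with 32.7%. A match is a run of letters in this window and no evidence of binding, and a missing match says only that these letters are not there.

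Gja1 was the gene that passed the test. After competent T cells the brightest probe set, 17233350, read 10.81, 10.67 and 10.59, and after deficient T cells 11.18, 11.49, 11.16, 11.09 and 11.41. The groups did not overlap, and the 3 competent arrays lay close together. The mean was 10.69 ± 0.11 after competent T cells (SD, n = 3) and 11.27 ± 0.17 after deficient T cells (SD, n = 5), a change of -0.58 ± 0.12 (limma, adjusted p = 0.00483), or 0.669-fold with a 95% interval of 0.564 to 0.795. The call held without either array that stood apart, at an adjusted p of 0.0195 without competent replicate 2 and 0.0282 without replicate 3. It was lost with array weights (adjusted p = 0.0625) and with the 16.113 arrays fitted alone (adjusted p = 0.183).

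The other probe sets of Gja1 did not move as far. Probe set 17233349 had a change of -0.31 and probe set 17233348 of 0.05, and the average of the 3 had a change of -0.28 ± 0.12 (adjusted p = 0.178). In MCA313 tumours the brightest probe set read 12.11, 11.79 and 11.85 at 0 h, 11.82 and 11.76 at 24 h, and 11.85 and 11.89 at 48 h, all within the 0 h range or just below it. In J558L tumours it read 12.48 in all 3 arrays at 24 h and 12.58 and 12.51 at 0 h, and in kidney 10.37, 10.53 and 10.54 at 24 h and 10.68, 10.62 and 10.60 at 0 h. Both J558L comparisons were lower without overlap but by 0.06 ± 0.15 and 0.16 ± 0.13, and neither passed (adjusted p = 0.999 and 0.692). The 16.113 change minus the J558L tumour change was -0.52 ± 0.19 (adjusted p = 0.584), which did not pass.

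Markers of other cells were read in the same 16.113 arrays, and some ranges differed between the groups. Krt19, an epithelial keratin and the only one of 13 kidney tubule markers measured, lay 2.07 to 3.70 above the array median after competent T cells and 3.97 to 4.68 after deficient T cells. Dcn, a fibroblast proteoglycan, lay 3.83 to 6.41 above it after competent T cells and 5.95 to 6.55 after deficient T cells. The whole pericyte and fibroblast list (5 of 10 measured) had mean levels of 2.42 to 3.46 above the array median after competent T cells and 2.95 to 3.33 after deficient T cells. Its other genes did not follow Dcn. Col1a1 had a mean log2 level of 10.99 after competent T cells and 10.66 after deficient T cells, in the other direction. Rgs5 averaged 7.68 in both groups, Col3a1 9.61 and 9.68, and Lum 3.94 and 4.01. The leukocyte list (7 of 14 measured) had 1.80 to 2.04 after competent T cells and 1.37 to 2.13 after deficient T cells. The plasma cell list (3 of 5 measured) had 3.75 to 4.3 after competent T cells and 3.2 to 3.61 after deficient T cells. Of its genes Irf4, which activated lymphocytes also express, had a mean log2 level of 7.68 after competent T cells and 5.17 after deficient T cells, whereas Sdc1 averaged 8.71 and 9.65 and Xbp1 12.53 and 12.73. The lymphatic list (2 of 4) had 4.70 to 6.39 after competent T cells and 5.18 to 5.87 after deficient T cells, and the platelet list (3 of 5) 2.35 to 3.34 and 2.96 to 3.67. None of 4 erythroid markers was measured. Fibroblasts and epithelium also express Gja1, and the part of such cells in its change was not tested.

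**Figure D2:**
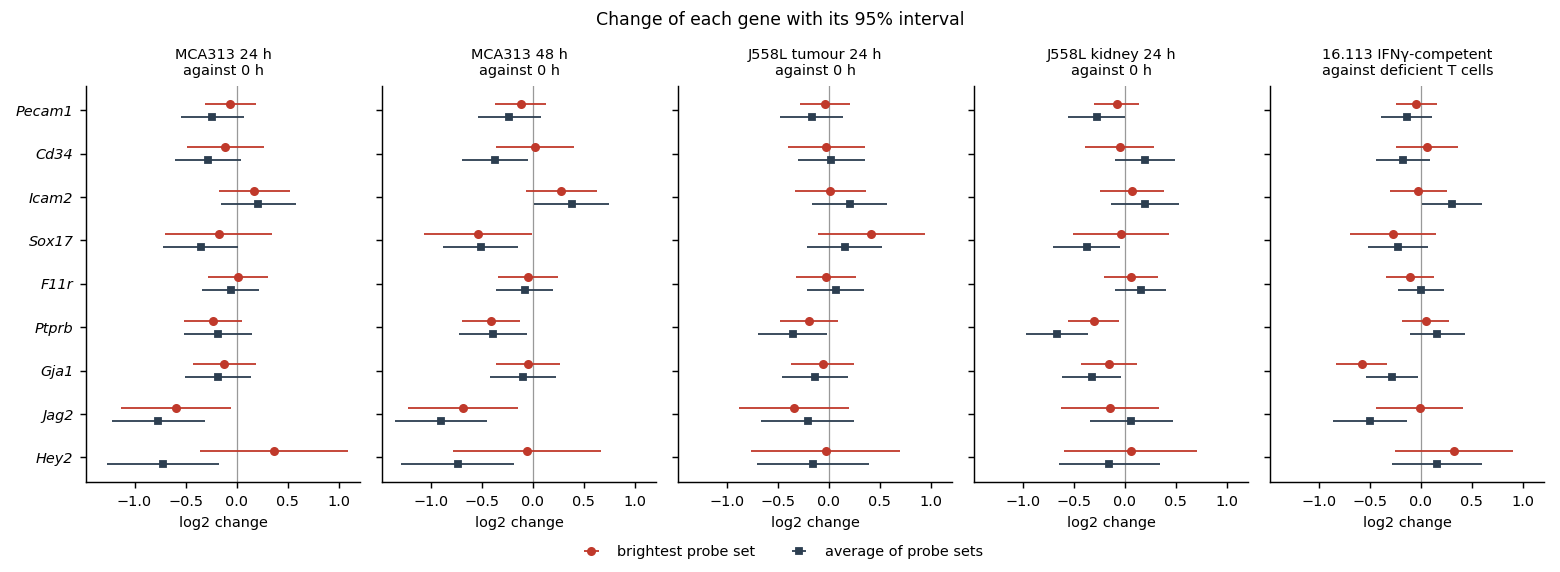
Log2 change of each gene (horizontal axis) in the 5 comparisons with a control, for the brightest probe set (red circles) and the average of the probe sets (dark squares), with 95% intervals from the limma fits. Gja1 in 16.113 tumours lies at -0.58, and averaged Ptprb in kidney at -0.67 beside -0.31 for its brightest probe set.

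Ptprb fell in kidney endothelium when its probe sets were averaged. Averaged over its 30 probe sets it read 11.38, 11.32 and 11.43 at 24 h and 12.04, 12.02 and 12.07 at 0 h. The groups were well apart and each was tight. The change was -0.67 ± 0.15 (limma on averaged probe sets, adjusted p = 0.00598), or 0.630-fold, and 5.28% of all genes were called by that reading.

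The brightest probe set of Ptprb, which lay near the top of the scale, showed less than the average did. It read 13.54, 13.40 and 13.45 at 24 h and 13.71, 13.81 and 13.80 at 0 h, again without overlap, a change of -0.31 ± 0.12 that did not pass (adjusted p = 0.229). Of the 30 probe sets 29 were lower, with a median of -0.69 and a range of -1.11 to 0.16. The 9 probe sets above a log2 level of 13 had a median of -0.63, the 17 between 10 and 13 had -0.79 and the 4 below 10 had -0.48. Probe set 17237479 of Ptprb was the 1 of all 116 called in kidney, against 1.32% of all probe sets, at 11.69, 11.58 and 11.76 at 24 h and 12.61, 12.54 and 12.66 at 0 h (-0.92 ± 0.19, adjusted p = 0.017). That call was lost without 0 h replicate 1 or 3 or 24 h replicate 1 or 2, each left out alone. At an unadjusted p under 0.05 there were 22 of 30 probe sets of Ptprb, with 11.4% of all probe sets.

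**Figure D3:**
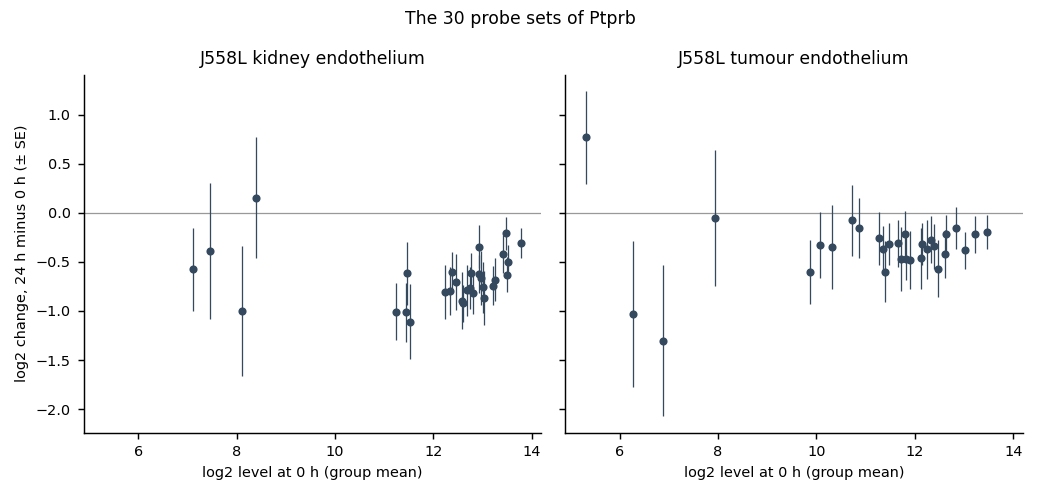
Log2 change of each of the 30 probe sets of Ptprb (vertical axis, ± SE) against its mean log2 level at 0 h (horizontal axis) in J558L kidney and J558L tumour endothelium. In each tissue 29 of 30 points lie below 0, and the probe sets between 10 and 13 have a median of -0.79 in kidney and -0.33 in tumour.

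Markers of other cells were read in the same kidney arrays. The pericyte and fibroblast list had mean levels of 2.28 to 2.82 above the array median at 24 h and 2.19 to 2.69 at 0 h. Its genes went different ways. Rgs5, a pericyte gene, had 4.76 to 4.79 at 24 h and 5.28 to 5.45 at 0 h. The other measured genes of the list had higher means at 24 h, with ranges that overlapped. Col1a1 had a mean log2 level of 10.51 at 24 h and 10.34 at 0 h, Col3a1 9.72 and 9.41, Dcn 8.56 and 8.01, and Lum 4.37 and 4.29. The leukocyte list had 0.88 to 0.99 at 24 h and 0.38 to 1.16 at 0 h. Among the lists, ranges did not overlap for the tubule list, measured by Krt19 alone, at 0.39 to 0.77 at 24 h and -0.0048 to 0.36 at 0 h. The same held for the lymphatic list, at 4.27 to 4.53 at 24 h and 4.68 to 4.87 at 0 h. It also held for the plasma cell list, at 2.78 to 2.79 at 24 h and 2.84 to 3.12 at 0 h. Genes within both lists differed. In the lymphatic list Flt4 had a mean log2 level of 13.12 at 24 h and 13.50 at 0 h, while the ranges of Prox1 overlapped. In the plasma cell list Sdc1 averaged 8.49 at 24 h and 9.14 at 0 h. Xbp1 went the other way, at 13.25 and 13.10, and Irf4 averaged 5.65 and 5.69. The endothelial list, which holds Ptprb itself, had 6.28 to 6.35 at 24 h and 6.44 to 6.48 at 0 h. Their part in the change was not tested.

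In tumours Ptprb was lower in the IFNγ-induced arrays by less than the test could separate. MCA313 tumours read 13.24, 13.23 and 13.19 at 0 h, 13.08 and 12.89 at 24 h, and 12.70 and 12.92 at 48 h. All induced arrays lay below all 0 h arrays, while the 24 h and 48 h ranges overlapped. The changes were -0.23 ± 0.14 at 24 h and -0.41 ± 0.14 at 48 h (adjusted p = 0.594 and 0.164), and the later one passed with a trended, robust variance prior (adjusted p = 0.0196). J558L tumours read 13.32, 13.27 and 13.26 at 24 h and 13.46 and 13.50 at 0 h, with 29 of 30 probe sets lower at a median of -0.33 and an averaged change of -0.35 ± 0.16 (adjusted p = 0.446). The tumour response minus the kidney response was 0.32 ± 0.22 on the averaged scale (adjusted p = 0.85), so the kidney was not shown to respond more. After competent T cells 23 of the 30 were higher, and the brightest had a change of 0.05 ± 0.11.

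Jag2 fell in MCA313 tumours at 48 h when its probe sets were averaged. Averaged over 19 probe sets it read 8.98, 8.39 and 8.52 at 0 h, 8.10 and 7.62 at 24 h, and 7.45 and 8.01 at 48 h. Each induced array lay below each 0 h array, and the ranges of both induced times overlapped. The averaged change was -0.77 ± 0.22 at 24 h (adjusted p = 0.0644) and -0.90 ± 0.22 at 48 h (adjusted p = 0.0253), where 2.61% of all genes were called by that reading. The later call was lost without 0 h replicate 1 (adjusted p = 0.165) and without 48 h replicate 1 (adjusted p = 0.447), and with the MCA313 arrays fitted alone (adjusted p = 0.133).

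The brightest probe set of Jag2 read 12.07, 11.46 and 11.62 at 0 h, 11.48 and 10.77 at 24 h, and 10.87 and 11.20 at 48 h. Its changes were -0.60 ± 0.26 and -0.68 ± 0.26 (adjusted p = 0.4 and 0.239), and one 24 h array lay within the 0 h range. All 19 probe sets of Jag2 were lower at 24 h and 18 at 48 h, with medians of -0.74 and -0.91, but none was called. A list of plasma cell genes (3 of 5 measured, Sdc1, Xbp1 and Irf4) had mean levels of 2.51 to 3.42 above the array median at 0 h, 4.26 to 4.30 at 24 h and 3.64 to 4.61 at 48 h. Among its genes Irf4 differed most, with a mean log2 level of 5.04 at 0 h, 8.43 at 24 h and 8.08 at 48 h, while Sdc1 averaged 8.52, 8.81 and 8.66 and Xbp1 12.92, 13.06 and 13.09. Their part in the change of Jag2 was not tested.

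In the other sets Jag2 did not pass as a gene. J558L tumours read 11.21, 11.07 and 11.29 at 24 h and 11.35 and 11.72 at 0 h, with 14 of 19 probe sets lower. Kidneys read 12.38, 12.36 and 12.36 at 24 h and 12.86, 12.56 and 12.13 at 0 h, with 9 of 19 lower. In 16.113 tumours the brightest probe set had a change of -0.01 ± 0.21 while 14 of 19 were lower and the average had a change of -0.50 ± 0.18 (adjusted p = 0.0772). Of the 4 probe sets of all 116 that were called there, against 4.04% of all probe sets, 2 were of Jag2, 1 was that of Cd34 and 1 was 17233350 of Gja1 (adjusted p = 0.0316 over probe sets). Probe set 17284257 of Jag2 read 8.21, 5.27 and 4.29 after competent T cells and 8.41, 8.42, 8.34, 7.72 and 8.69 after deficient T cells (-2.39 ± 0.53, adjusted p = 0.0153), with competent replicate 1 inside the deficient range. Probe set 17284256 of Jag2 read 5.97, 5.18 and 5.03 after competent T cells and 6.92, 6.59, 6.24, 6.14 and 6.53 after deficient T cells (-1.09 ± 0.29, adjusted p = 0.0401). The lowest arrays in both were competent replicates 2 and 3, which stood apart. Without competent replicate 2, 0 of the 116 probe sets were called (3.37% of all probe sets), and without competent replicate 3, 1 (1.62%). The count also moved with other arrays left out. It was 1 to 2 without deficient replicate 1, 2, 3 or 5 (2.64 to 3.25%) and 12 without competent replicate 1 (8.74%).

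**Figure D4:**
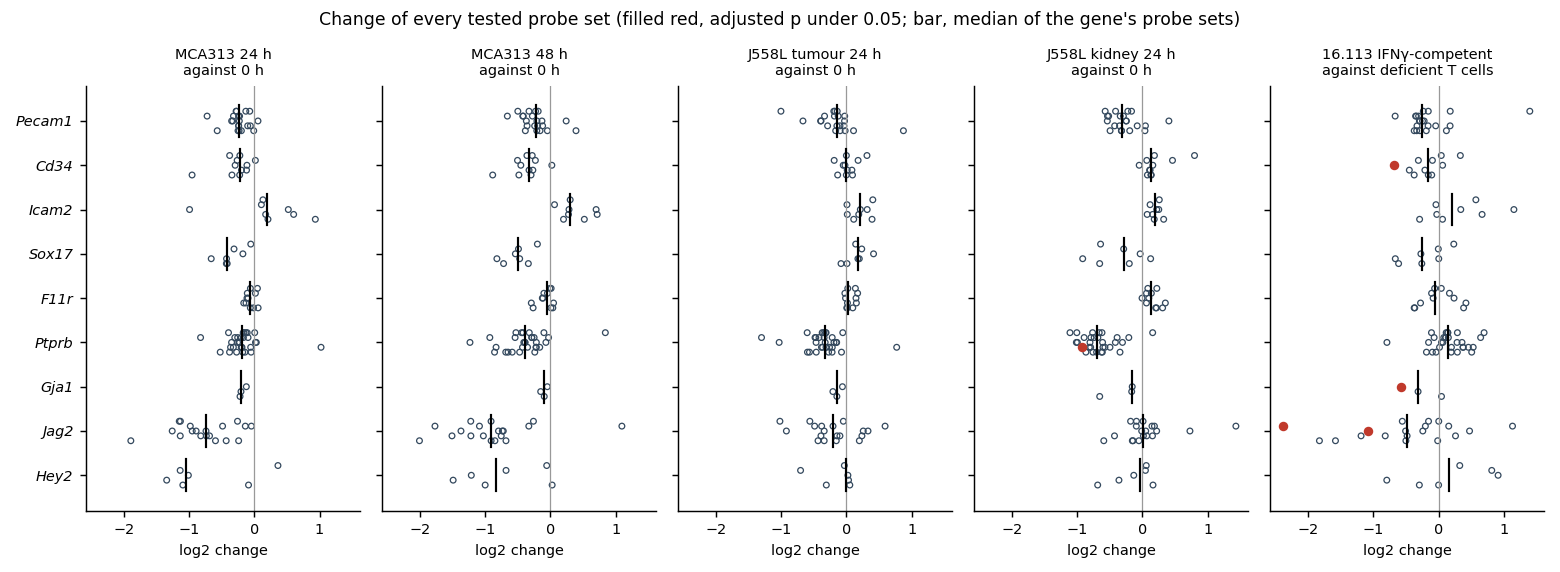
Log2 change (horizontal axis) of every tested probe set of the 9 genes in the 5 comparisons with a control. Filled red points had an adjusted p under 0.05 and black bars are the median of a gene's probe sets. Jag2 has its median at -0.74 and -0.91 in the MCA313 panels, and Ptprb at -0.69 in kidney.

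Hey2, a transcriptional repressor induced by Notch in arterial endothelium, was above the middle of the scale in kidney and mostly below it in J558L tumours. In the other tumours its probe sets lay on both sides of it. In kidney all 6 probe sets were above the array median in every array of both groups. In J558L tumours 0 of 6 were above it in every array and 5 were below it in every array, at 24 h and at 0 h. In MCA313 tumours 2 of 6 were above it in every array at 0 h, 1 at 24 h and 1 at 48 h, and in 16.113 tumours 1 of 6 in each group. Single values there reached higher, as with probe set 17240081 at 1.92 and 1.58 above the array median in competent replicates 2 and 3. Kidney and tumour arrays were normalized apart, so this is a position within each array and carries no test.

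The probe set of Hey2 with the highest mean over all arrays, 17240083, read 7.39, 7.21 and 8.08 in kidney at 24 h and 7.02, 7.84 and 7.64 at 0 h. The ranges overlapped, and the change was 0.06 ± 0.31 (limma, adjusted p = 0.969). Within kidney it was not the brightest. At 0 h there it averaged 7.50, beside 9.32 for 17240081 and 8.67 for 17240079. The average of the probe sets in kidney was 7.83 at 24 h and 7.98 at 0 h. In MCA313 tumours 5 of 6 probe sets were lower at 24 h and at 48 h, with medians of -1.05 and -0.84, and the average had a change of -0.72 ± 0.27 and -0.74 ± 0.27 (adjusted p = 0.181 and 0.153). The brightest probe set, at 5.93 to 6.72 at 0 h, 6.32 to 7.15 at 24 h and 6.23 to 6.41 at 48 h, had a change of 0.36 ± 0.35 at 24 h, in the other direction. It read 6.25 to 6.5 in J558L tumours at 24 h and 6.24 to 6.51 at 0 h, and 5.88 to 7.32 in 16.113 tumours after competent T cells and 6.20 to 6.48 after deficient T cells (0.33 ± 0.28, adjusted p = 0.539). Averaged levels in MCA313 tumours were 5.34, 5.46 and 5.49 at 0 h, 4.75 and 4.67 at 24 h, and 4.72 and 4.67 at 48 h. All of these lay below the array medians. Of the 6 probe sets, 17240078 and 17240084 exceeded the array median in kidney arrays alone. Probe set 17240082 did so in kidney and in competent replicate 2 and deficient replicate 4 of 16.113. They passed the filter through those arrays and lay below the median in every MCA313 array.

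**Figure D5:**
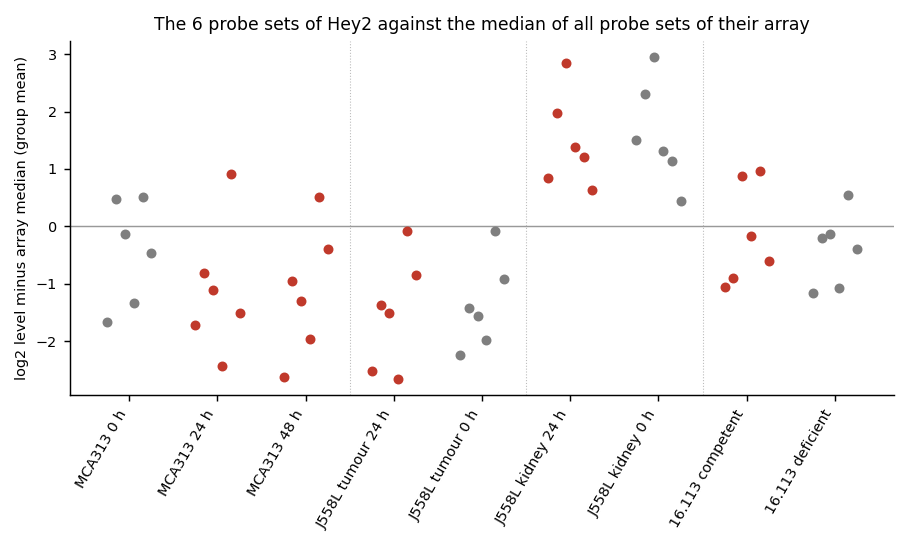
Mean log2 level of each of the 6 probe sets of Hey2 minus the median of all probe sets of its array (vertical axis), by group. All 6 lie above 0 in both kidney groups, and in both J558L tumour groups all 6 group means lie below 0.

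By direction alone, the probe sets of the 9 genes leaned lower in MCA313 tumours, 85.3% of 116 at 24 h and 84.5% at 48 h, against 57 and 55.9% of all probe sets tested. The shares were 66.4% in J558L tumours, 60.3% in kidney and 55.2% in 16.113 tumours, against 53.9, 53 and 55.6% of all probe sets. Of the 8 genes with 5 or more probe sets, 4 had at least 90% of them lower at 24 h in MCA313 tumours (Pecam1, Sox17, Cd34 and Jag2), with 11.1% of all such genes. The same count was 5 of 8 at 48 h (Ptprb in addition), with 11.4% of all such genes, 2 in J558L tumours (Pecam1 and Ptprb) with 11.4%, 1 in kidney (Ptprb) with 9.46%, and 0 in 16.113 tumours with 9.68%. At least 90% higher had 0 of 8 at 24 h in MCA313 tumours, with 5.64% of all such genes, 1 at 48 h (Icam2) with 5.82%, 1 in J558L tumours (Icam2) with 7.78%, 3 in kidney (Cd34, Icam2 and F11r) with 9.93% and 0 in 16.113 tumours with 3.96%. The 2 MCA313 comparisons share their 0 h arrays. Ptprb, Pecam1 and Jag2 had 30, 21 and 19 of the 116 probe sets, and probe sets of 1 gene are no separate members. The probe sets and genes set beside the 9 genes were not matched to them for level. The filter took all arrays together. A probe set could thus be counted where it lay below the array median, as some of Hey2 did in MCA313 tumours.

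Across genes tested, the median change was near 0 in each comparison, and the 9 genes had medians of -0.11 and -0.06 in MCA313 tumours at 24 and 48 h, -0.03 in J558L tumours, -0.05 in kidney and -0.03 in 16.113 tumours. The medians of all 4386 genes were -0.01, -0.02, -0.01, 0.01 and -0.03 in the same order.

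Other genes of the same pathways, from lists of 65 endothelial identity, 60 junction and 51 Notch and arterial genes, could be tested for 9, 9 and 13 further genes. In MCA313 tumours at both times and in J558L tumours limma called 0 in any list. At an unadjusted p under 0.05 there were 1 identity, 1 junction and 1 Notch gene at 24 h in MCA313 tumours, 4, 1 and 2 at 48 h, and 2, 0 and 1 in J558L tumours. The identity list had median changes of -0.23 at 24 h and -0.37 at 48 h in MCA313 tumours, -0.08 in J558L tumours, -0.28 in kidney and 0.02 in 16.113 tumours. The junction list had 0.02, -0.11, -0.14, 0.15 and -0.15 and the Notch list -0.04, 0.03, -0.07, -0.09 and -0.22 in that order, beside the medians of all genes given above. The largest changes in MCA313 tumours at 24 h were in Clec14a, a vascular C-type lectin (-0.93 ± 0.55), and Prox1, the lymphatic transcription factor (0.85 ± 0.60). Among junction genes they were in Cldn7, a claudin (-0.66 ± 0.46), and Jup, plakoglobin of adherens junctions and desmosomes (-0.60 ± 0.22), and in the Notch list in Unc5b, a netrin receptor of arterial endothelium (-0.92 ± 0.29), and Dner (0.41 ± 0.32). At 48 h the same pairs led the first lists, with Clec14a at -1.27, Prox1 at 1.21, Cldn7 at -0.79 and Jup at -0.78, and Psen2, a presenilin of gamma-secretase, at -0.95 led Unc5b at -0.93. In J558L tumours the leading changes were Prox1 at 1.01 and Flt4, the receptor VEGFR3, at -0.51, Cldn7 at -0.56 and Jup at -0.40, and Unc5b at -0.85 and Dlk1 at 0.30.

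In kidney 0 of the other identity, junction and Notch genes rose and 4 fell. These were the ETS factor Elk3 (-0.56 ± 0.15, adjusted p = 0.0406), Jup (-0.76 ± 0.20, adjusted p = 0.0406), the chemokine receptor Cxcr4 (-1.37 ± 0.23, adjusted p = 0.00143) and Ncstn, the nicastrin subunit of gamma-secretase (-0.86 ± 0.23, adjusted p = 0.0415). Read by averaged probe sets Elk3 did not pass, while the identity gene Bcl6b rose (0.52, adjusted p = 0.0308) and Jup, Cxcr4, Ncstn and the Notch list's Dlk1 (-0.95, adjusted p = 0.044) fell. The brightest probe sets of Bcl6b and Dlk1 had changes of 0.16 and 0.24 that did not pass. In 16.113 tumours Myct1, an endothelial gene, rose (0.49 ± 0.11, adjusted p = 0.0105). There Ccm2, a scaffold protein of endothelial junctions (-1.06 ± 0.26, adjusted p = 0.0158), Unc5b (-0.78 ± 0.23, adjusted p = 0.0463) and Aph1a, another gamma-secretase subunit (-0.80 ± 0.19, adjusted p = 0.0121), fell. By averaged probe sets these 4 passed again, and Jup (-0.75, adjusted p = 0.000753) and the desmosomal gene Dsp (-1.37, adjusted p = 0.000433) fell too. Bcl6b, Dlk1 and Dsp are named here after their values were seen. By list, 1 of 9 identity genes, 1 of 9 junction genes and 2 of 13 Notch genes were called in each of these 2 comparisons, with 3.17% of all genes called in kidney and 7.36% in 16.113 tumours. All 15 probe sets of Unc5b were lower in each of the 3 tumour comparisons with a 0 h control and in 16.113 tumours. The average of its probe sets passed in MCA313 tumours at 24 h (-1.19, adjusted p = 0.0298) and at 48 h (-1.24, adjusted p = 0.0188).

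By likeness over the 26 arrays, each reduced by the mean of its set, each gene had a closest partner among 4385 others. Ptprb was most like C1qtnf1 (Pearson r = 0.87), Gja1 most like Myh10 (r = 0.85), Jag2 most like Trim16 (r = 0.82) and Cd34 most like Ankrd36 (r = 0.81). Pecam1 was most like Acsf2 (r = 0.77), Hey2 most like Ppp3r1 (r = 0.72), Sox17 most like Klhl11 (r = 0.71), F11r most like Tmem169 (r = 0.70) and Icam2 most like 4933406K04Rik (r = 0.67). The closest pair within the 9 genes was Ptprb and Jag2 (r = 0.59), and 79 other genes were closer to Ptprb than Jag2 was. These values share arrays, groups and normalization and are descriptions.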

How the data were processed

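Sorted endothelial cells (CD31+/CD146+, 5000 to 15000 a sample) gave about 500 pg of RNA for the Affymetrix WT Pico assay, per the labels. The authors deposited log2 values for 65535 probe sets on 26 arrays. The submitters' processing notes name Affymetrix Expression Console with limma and give no version. For the normalization, the method is not given in sources used here. Gene names came from the array annotation and were updated through RefSeq GRCm38.p6 (4618 symbols current, 494 synonyms, 8 unmatched). Excluded were 766 probe sets naming several genes and 10912 naming none.

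From the deposited log2 values, limma 3.58.1 in R 4.3.3 fitted the means of the 9 groups over all 26 arrays in 1 model, so that all groups share an estimate of the spread, and 9 contrasts were tested. A probe set had to exceed its array's median in at least 2 arrays. 4386 genes were tested by their brightest probe set, 39400 probe sets each on its own, and 4410 genes by the average of their probe sets, each family with its own Benjamini-Hochberg adjustment. The fit was tested on simulated data. Alternatives were averaged probe sets, no filter, a filter at the 75th percentile, quantile normalization, a trended robust prior, array weights, a replicate block, each set alone, and each array left out. The genes and lists were chosen with earlier results of these data known. Values were named by rule: all 9 genes with every probe set, other listed genes that passed the test or, with none, the 2 of largest change, and the most similar gene to each. The endothelial, lymphatic, leukocyte, platelet, pericyte and fibroblast, plasma cell, kidney tubule and erythroid marker lists had 7, 2, 7, 3, 5, 3, 1 and 0 genes measured.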

Additional observations from a re-analysis of the deposited data

How the results depend on the processing

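No value of the 9 genes that had passed the test in one setting changed direction in another. Of 1242 values under an alternative, 1138 kept direction and side of the threshold, 96 changed sign with no call in either setting, 4 lost a call and 4 gained one. The genes called in MCA313 tumours at 48 h went to 1 with averaged probe sets (Jag2; 2.61% of all genes) and to 1 with a trended, robust prior (Ptprb; 1.89%), against 0 (1.37%). In kidney they went to 1 with averaged probe sets and to 1 with the trended, robust prior (Ptprb in both; 5.28 and 3.65% of all), against 0 (3.17%). In 16.113 tumours they went to 0 with averaged probe sets, 0 with array weights, 0 with the replicate block and 0 with the set fitted alone (9.77, 1.76, 1.64 and 0.83% of all), against 1 (Gja1; 7.36%). With each array left out in turn, 0 genes were called in MCA313 and J558L tumours and kidney and 1 in 16.113 tumours, where the change of Gja1 ran from -0.64 to -0.52 at adjusted p from 0.00392 to 0.0282.

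Counts of probe sets moved more. At 24 h in MCA313 tumours 1 was called with the trended, robust prior (0.279% of all probe sets), against 0 (0.16%). At 48 h 1 was called with that prior (0.652%), against 0 (0.322%). Counts of probe sets from fits with 1 array left at 24 h or 48 h are not given. In kidney 6 were called with the stricter filter, 4 with quantile normalization, 12 with the trended, robust prior, 12 with array weights (2.98, 1.42, 1.94 and 2.67% of all probe sets), 0 with the replicate block, 0 with the set alone (0.137 and 0.153%) and 0 to 1 with an array left out, against 1 (1.32%). In 16.113 tumours 1 was called with no filter, 8 with the trended, robust prior (2.28 and 5.36% of all), 0 with array weights, 0 with the replicate block, 0 with the set alone (0.365, 0.434 and 0.265%) and 0 to 12 with an array left out (12 without competent replicate 1, with 8.74% of all, 0 without competent replicate 2, 1 without competent replicate 3, and 1 to 2 without deficient replicate 1, 2, 3 or 5), against 4 (4.04%). In kidney the arrays whose removal left 0 calls had 0.56 to 0.913% of all probe sets called without them. In 16.113 tumours the share was 3.37% without competent replicate 2 and 1.62% without competent replicate 3. It was 2.64 to 3.25% without deficient replicate 1, 2, 3 or 5. The causes were not tested.

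Within sets, same-numbered arrays of the groups compared deviated with correlations of -0.14 to 0.11, and in no comparison with 3 pairs were all above 0.1. With 2 or 3 pairs a comparison this could not settle whether arrays were paired. Tumour and kidney arrays of the same number were not compared in this way. With the replicate block the change of Gja1 was -0.59 (adjusted p = 0.11), of averaged Jag2 at 48 h -0.96 (adjusted p = 0.157) and of averaged Ptprb in kidney -0.67 (adjusted p = 0.0651), a call that held with each kidney array left out (adjusted p from 0.019 to 0.0345) and with the set alone (0.0475). Over all genes the averaged reading called 2.7% in MCA313 tumours at 24 h, 1.72% in J558L tumours and 9.77% in 16.113 tumours, against 0.684, 0.547 and 7.36% by the brightest probe set. The further readings of averaged Jag2 and Ptprb were chosen after seeing the data.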
